A study of Mus musculus with 12 samples.

Results

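The Hox genes of the mouse were followed through 4 adipose depots and 4 marker-gated classes of nuclei. The members were all gene symbols made of Hox, a cluster letter (a to d) and a number, with antisense and opposite-strand transcripts left out. They were 39 of the 32285 genes in the count matrices. The data were 12 single-nucleus RNA-seq libraries from male C57BL/6J mice on normal chow, 1 library for each combination of depot, age and temperature. The samples labelled mPRAT and iBAT each had 4 libraries, at 1, 2 and 6 months at room temperature (22 °C) and at 6 months after 3 days at 4 °C. The lPRAT samples had 2 libraries, at 2 and 6 months at room temperature, and the iWAT samples had 2, at 6 months at room temperature and in cold. The labels give these depots only as abbreviations. In common use PRAT is fat around the kidney, with m and l for its medial and lateral parts, iBAT is brown fat between the shoulder blades and iWAT is white fat of the groin. Sample titles give 6 months where the age field gives 16 weeks, and the number of animals in a library is not given in the sources used here. Each depot, age and temperature has 1 library. The p-values of depot comparisons within a class thus measure only the spread between libraries after additive terms for age and temperature. Age and cold were tested only as effects shared by the depots. Comparisons between classes kept the library as a block, so their p-values measure how much the class difference varies between libraries.

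Hox genes encode homeodomain transcription factors that lie in clusters, and their order along a cluster matches the order in which they are used from the head end to the tail end of the embryo. Genes at the same place in different clusters are paralogs and share a number, so low numbers are called anterior and high numbers posterior. Adult connective tissue and fat keep much of this regional pattern, which makes the Hox profile a record of where in the body a cell's lineage was laid down. HOX proteins bind DNA together with partner homeodomain proteins of the PBX, MEIS and PREP families.

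Nuclei were assigned to a class by marker genes. The classes were adipocytes, adipose stem and progenitor cells (ASPC, the fibroblast-like cells that give rise to adipocytes), endothelial cells of blood vessels, and mural cells, which wrap vessels as pericytes and smooth muscle. There were 66979 adipocyte, 6039 ASPC, 4094 endothelial and 1721 mural nuclei among 106898 that passed the quality limits. Every marker of each list was above 0 in every library used for that class, including Adipoq at 40.4 to 280.1 CPM in adipocytes, Pdgfra at 221 to 580 CPM in ASPC, Pecam1 at 815 to 1283 CPM in endothelial nuclei and Rgs5 at 385 to 1557 CPM in mural nuclei. CPM is the usual depth-scaled count, here from the UMIs (unique molecule tags) of a gene and of all genes summed over the nuclei of 1 class in 1 library. The same markers set the gates, so their levels are no separate check of the classes. Other markers varied more, such as Myh11 at 147 to 3966 CPM in mural nuclei and Pi16 at 36.5 to 672 CPM in ASPC. Whether the mix of cells within a class differed between depots was not tested. Mural nuclei of lPRAT (3 and 14) and endothelial nuclei of lPRAT at 2 months (17) were too few and stayed out of all tests. Library totals ran from 5461133 UMIs in lPRAT at 2 months to 87035783 in iBAT in cold. The mPRAT library in cold stood apart, with 66.0% of its nuclei over the mitochondrial limit against 22.1% or less in the others, and counts are given below with and without it where they moved.

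By the GENCODE vM21 annotation of GRCm38, the 39 members lie in HoxA on chromosome 6 (52155590 to 52260880, minus strand, 11 members), HoxB on chromosome 11 (96194316 to 96368256, plus strand, 10 members), HoxC on chromosome 15 (102921103 to 103036852, plus strand, 9 members) and HoxD on chromosome 2 (74668310 to 74765142, plus strand, 9 members). The annotated spans of 11 members, introns included, overlap another member on the same strand. These are Hoxa3 with Hoxa4, Hoxa5 and Hoxa6, Hoxc5 with Hoxc6, Hoxc8, Hoxc9 and Hoxc10, and Hoxd3 with Hoxd4. Whether their exons overlap was not checked. Reads in a shared stretch cannot be split with certainty, so single values of these members are uncertain to that extent. RefSeq promoter windows (GRCm38.p6, 250 bases before the start) matched 22 of the members, with 24 windows. The Hox windows had a median of 12.5 CpG dinucleotides against 6 over 32851 windows of all genes. Single Hox windows ran from 2 to 35, and the Hoxa9 window printed below held 3. Both strands were searched for a CDX-type motif, TTTATNG, which binds the CDX factors that act on Hox clusters in the embryo, and for a composite HOX and PBX motif, TGATNNAT. The CDX-type motif was in 2 of 24 Hox windows (8.33%) and in 9.81% of all windows, and the composite motif in 4 of 24 (16.7%) and in 7.68%. The windows of Hoxb8, which held the most matches, and of Hoxa9, the posterior gene on which several results below turn, are printed 5′ to 3′ on the gene's strand with motif matches in capitals.
Hoxb8, chr11:96281655-96281904, plus strand: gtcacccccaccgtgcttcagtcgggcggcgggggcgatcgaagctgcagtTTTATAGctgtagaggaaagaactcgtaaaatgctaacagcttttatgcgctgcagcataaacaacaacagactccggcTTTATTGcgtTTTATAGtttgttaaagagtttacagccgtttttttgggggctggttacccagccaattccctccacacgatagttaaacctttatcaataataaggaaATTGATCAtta
Hoxa9, chr6:52227371-52227620, minus strand: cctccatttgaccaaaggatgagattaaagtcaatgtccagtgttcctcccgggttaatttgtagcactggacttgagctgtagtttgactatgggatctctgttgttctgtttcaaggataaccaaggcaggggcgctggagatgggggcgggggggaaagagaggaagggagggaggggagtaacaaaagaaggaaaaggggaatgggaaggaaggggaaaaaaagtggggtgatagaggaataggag
The Hoxb8 window held 3 CDX-type matches and 1 composite match, and the Hoxa9 window held none of either. A match is a stretch of letters only, and no binding was measured.

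The sum over all members was lowest in iBAT in each class. In ASPC it was 213 to 358 CPM over the 4 iBAT libraries, 622 to 1129 CPM in mPRAT, 789 to 844 CPM in lPRAT and 735 to 761 CPM in iWAT. In adipocytes the sum was 125 to 168 CPM in iBAT, 372 to 552 CPM in mPRAT, 568 to 662 CPM in lPRAT and 596 to 754 CPM in iWAT. Endothelial nuclei had 260 to 362 CPM in iBAT, 742 to 866 CPM in mPRAT and 849 to 862 CPM in iWAT, and mural nuclei had 322 to 372, 671 to 986 and 715 to 938 CPM. In no class did an iBAT library reach a library of another depot. Macrophage-gated nuclei, an immune class taken as the background, had 0 to 131 CPM over the 12 libraries from 0 to 86 Hox UMIs each. By depot this was 0 to 65.3 CPM in iBAT, 46.0 to 113 in mPRAT, 131 and 38.3 in lPRAT and 103 and 51.2 in iWAT. The lowest iBAT adipocyte levels thus lay within the macrophage range. The median depth of macrophage-gated nuclei was 743 to 2192 UMIs a nucleus, against 837 to 3339 in ASPC. As these are sums over nuclei, more nuclei with a gene and more RNA per nucleus were not told apart here.

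**Figure D1:**
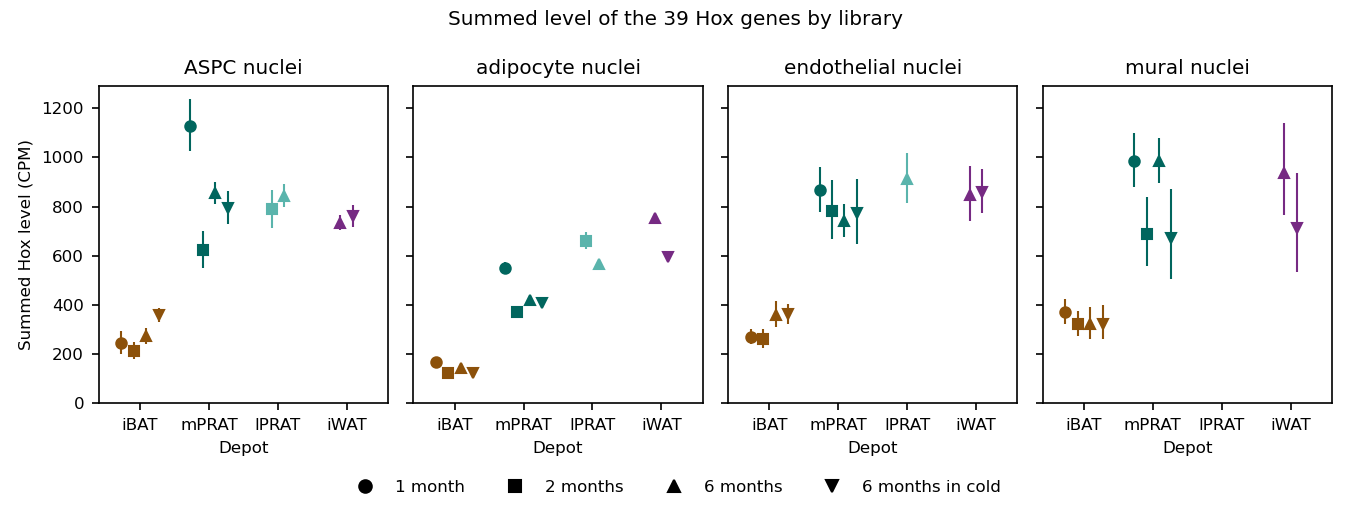
Summed level of the 39 Hox genes (CPM, y axis) by depot (x axis) in 4 classes of nuclei, 1 point for each library with its exact 95% Poisson interval, which covers counting error only; symbols mark age and temperature. In each class all iBAT points lie below all points of the other depots, for example at 213 to 358 CPM against 622 CPM or more in ASPC.

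In ASPC, of 28 members with enough counts, 13 were higher in mPRAT than in iBAT and 0 lower (46.4%), where 8.27% of all 16022 genes were called in either direction, 4.93% higher and 3.34% lower. The called members were Hoxa3, Hoxa5, Hoxa7, Hoxa9, Hoxa10, Hoxb5, Hoxb6, Hoxc4, Hoxc5, Hoxc6, Hoxc8, Hoxc9 and Hoxc10. The Hoxb5 call was lost by DESeq2 and without mPRAT at 6 months. No test of position along the clusters was made.

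The 4 called posterior members, Hoxa9, Hoxa10, Hoxc9 and Hoxc10, were not seen in iBAT ASPC at this depth, so they passed the count filter through the other depots. Hoxd9, also posterior, had 3 UMIs in iBAT and 6 in mPRAT and was not called. Hoxa9, a posterior gene known for its part in blood stem cells and the lumbar skeleton, had 0 UMIs in all 4 iBAT libraries of ASPC. It had 62.4, 26.4, 38.2 and 22.3 CPM in mPRAT at 1, 2 and 6 months and in cold, 34.5 and 29.5 CPM in lPRAT, and 40.4 and 41.1 CPM in iWAT. Every library outside iBAT was thus well above the iBAT libraries, whose joint limit of 3 counts was 0.767 CPM. Against that limit Hoxa9 was at least 47.3-fold higher in mPRAT (edgeR quasi-likelihood test, Benjamini-Hochberg adjusted p = 7.1e-08). Hoxc9, also a posterior gene, had 0 UMIs in iBAT and 27.5, 22.0, 24.1 and 23.8 CPM in mPRAT, which was at least 31.5-fold higher (edgeR adjusted p = 6.8e-07). Hoxa10 and Hoxc10, a further pair of posterior paralogs, were likewise at 0 in the 4 iBAT libraries and at least 24.8-fold and 17.7-fold higher in mPRAT (edgeR adjusted p = 2.1e-06 and 6.6e-05). Hoxc10 is known from subcutaneous fat, where it holds back browning.

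Paralog groups 4 to 8 had 8 of 15 tested members called higher in mPRAT, and these were also present in iBAT. Hoxc8, known for its place in the thoracic skeleton, had 6.30, 7.20, 1.84 and 4.23 CPM in iBAT ASPC and 84.9, 37.4, 51.7 and 41.6 CPM in mPRAT. The groups did not overlap, and the log2 difference was 3.44 ± 0.33 (SE, edgeR adjusted p = 8.6e-08). Hoxc5 was at 2.77 to 9.07 CPM in iBAT and 25.3 to 64.9 CPM in mPRAT (2.85 ± 0.34, edgeR adjusted p = 2.8e-06). Hoxa7 was at 0 to 8.65 and 11 to 32.5 CPM (2.07 ± 0.46, edgeR adjusted p = 0.0037), and Hoxc6 at 6.30 to 18.7 and 47.6 to 78.6 CPM (1.98 ± 0.28, edgeR adjusted p = 2.6e-05). The other called members, Hoxa3, Hoxa5, Hoxb5, Hoxb6 and Hoxc4, differed by 1.01 to 1.79 on the log2 scale. Hoxa3, an anterior gene needed for the pharyngeal arches, was the only called member of paralog groups 1 to 3, with 35.7 to 82.8 CPM in iBAT and 110 to 257 CPM in mPRAT.

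Some members had like levels in both depots. Hoxb4, known for its part in the cervical skeleton and in blood progenitors, was at 23.1, 20.2, 19.4 and 21.2 CPM in iBAT ASPC and 25.0, 13.2, 19.1 and 28.2 CPM in mPRAT. These ranges overlapped, and the difference of -0.01 ± 0.32 did not pass the test. Hoxb3 was at 33.1 to 58.6 CPM in iBAT and 28.6 to 56.5 CPM in mPRAT and also did not pass. HoxD members were sparse in ASPC, at 1.31% to 4.86% of the Hox UMIs in mPRAT and 1.72% to 3.38% in iBAT, and 0 of 5 tested were called. Hoxd11, a posterior gene of the limb and kidney, had 0 UMIs in iBAT ASPC and 7.49, 2.20, 2.81 and 2.97 CPM in mPRAT and missed the threshold (edgeR adjusted p = 0.084).

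In ASPC of iWAT, members of several paralog groups were above iBAT as well. Against iBAT, 12 of 28 members were higher and 0 lower (4.94% of all genes called in either direction, 2.52% higher and 2.42% lower), namely the 13 named above except Hoxa5. This comparison shares the iBAT libraries with the last one, so the overlap is no separate evidence. Among these calls Hoxa3 was lost under 9, Hoxb5 under 7 and Hoxa7 under 5 of 21 alternatives. Leaving out either iWAT library was among these for Hoxa3 and Hoxa7, and leaving out the iWAT library in cold was for Hoxb5. Hoxc4 was lost without the iWAT library at room temperature. Hoxa9 was at least 52.9-fold higher in iWAT, and Hoxc9 at least 38.4-fold. Hoxc8 was at 76.0 and 64.9 CPM and Hoxc5 at 98.8 and 86.5 CPM in the iWAT libraries, above every iBAT library. Set directly against mPRAT, iWAT differed in 1 of 28 members (7.39% of all genes called, 3.32% higher and 4.07% lower). That member was Hoxc5, at 1.17 ± 0.32 on the log2 scale (edgeR adjusted p = 0.021), and the call was lost without the mPRAT library in cold or without either iWAT library. The count was 3 without iBAT at 6 months or lPRAT at 2 months and 2 without mPRAT or lPRAT at 6 months. Between lPRAT and mPRAT, 0 of 28 members were called in ASPC by edgeR, 2 had an unadjusted p under 0.05 (Hoxd3 and Hoxc8), and DESeq2 called 0, where edgeR called 2.91% of all genes (1.34% higher and 1.58% lower). Mesothelial markers, from the lining of the abdominal cavity, summed to 276 and 409 CPM in lPRAT ASPC and to 25.8 to 131 CPM in mPRAT ASPC, and their part in these values was not tested.

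**Figure D2:**
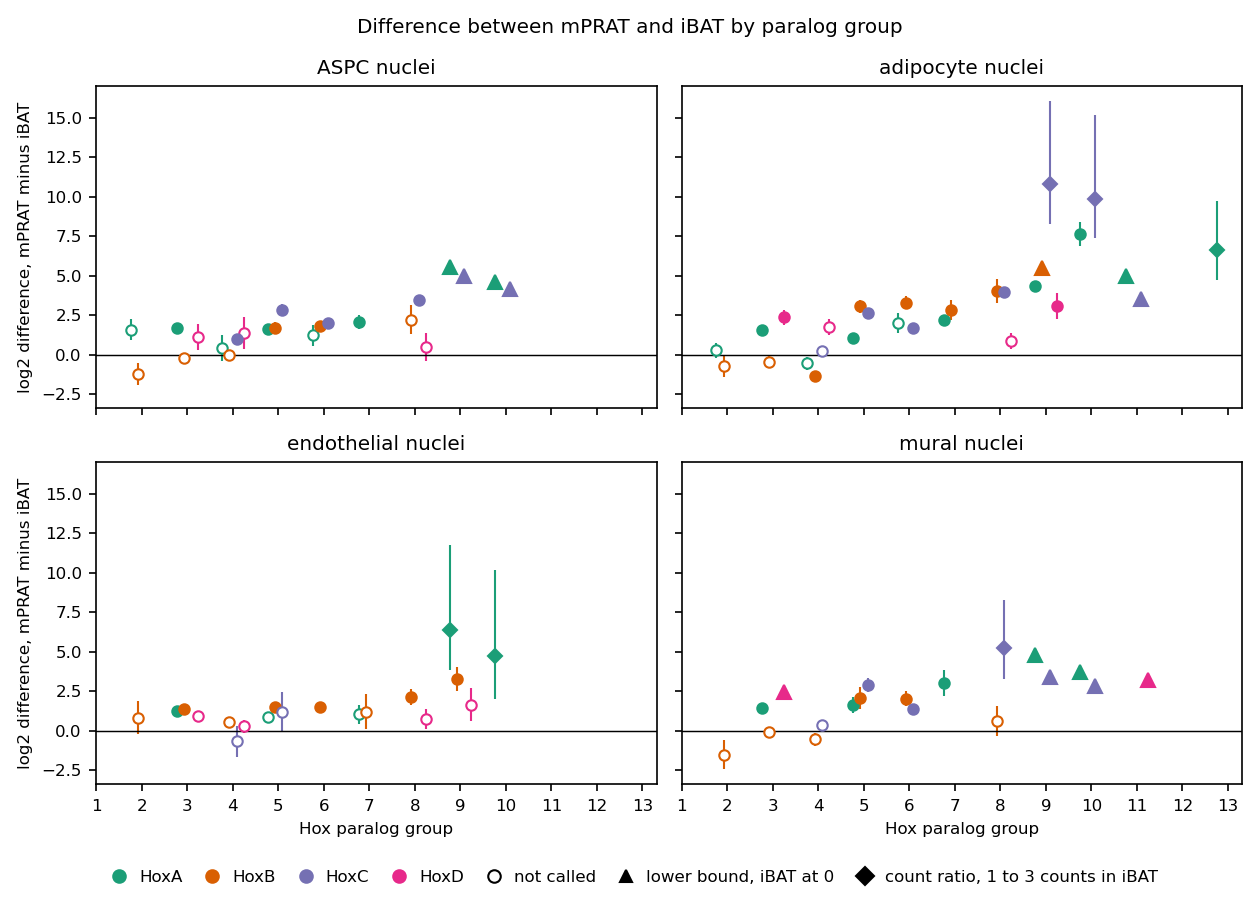
Difference between mPRAT and iBAT (log2, y axis) against the paralog group (x axis, anterior to posterior) in 4 classes of nuclei, with color for the cluster; filled points were called, open points were not, and bars are SE. Triangles are lower bounds for called members at 0 in iBAT and diamonds are count ratios with a 95% counting interval for called members with 1 to 3 counts there; members not called with 3 counts or fewer in either depot are left out. In ASPC the 4 triangles are Hoxa9, Hoxa10, Hoxc9 and Hoxc10, which had 0 UMIs in iBAT, so their heights are bounds and not measured differences.

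In adipocytes the same direction held for more members, at the greater depth of this class. Of 30 members tested, 20 were higher in mPRAT than in iBAT and 2 lower, where 8.84% of all 22240 genes were called in either direction, 5.56% higher and 3.28% lower. The higher ones were Hoxa3, Hoxa5, Hoxa7, Hoxa9, Hoxa10, Hoxa11, Hoxa13, Hoxb5, Hoxb6, Hoxb7, Hoxb8, Hoxb9, Hoxc5, Hoxc6, Hoxc8, Hoxc9, Hoxc10, Hoxc11, Hoxd3 and Hoxd9. Among these the Hoxd9 call was lost under 8 of 21 alternatives and the Hoxa5 and Hoxb7 calls under 6 each, among them leaving out any of the mPRAT and iBAT libraries at 1 or 2 months. The Hoxd3 call was lost without mPRAT or iBAT at 1 month. Without the mPRAT library in cold 15 members were called in place of 22, as also without mPRAT or iBAT at 1 month.

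Hoxc9, Hoxc10, Hoxa10 and Hoxa9 were low in iBAT adipocytes, and Hoxa9 was seen in all 4 libraries there. Hoxc9 had 1 UMI over the 4 iBAT libraries and 16.3, 10.6, 9.94 and 12.3 CPM in mPRAT, from 561 UMIs, and edgeR gave an adjusted p of 3.5e-05. Hoxc10 had 1 UMI in iBAT and 4.88, 4.47, 5.14 and 9.29 CPM in mPRAT (edgeR adjusted p = 0.00014). Their count ratios were 1759 and 928, with 95% counting intervals from 314 and 165 upwards, so the size is poorly known. Hoxa10 had 6 UMIs in iBAT and 512 in mPRAT, a log2 difference of 7.62 ± 0.77 (edgeR adjusted p = 0.00054). Hoxc9, Hoxc10 and Hoxa10 had under 10 UMIs in iBAT, so they passed the count filter through other depots. Their direction was thus near fixed in advance. Hoxa9 was at 4.04, 2.89, 1.81 and 1.42 CPM in iBAT and 81.6, 43.7, 41.9 and 47.6 CPM in mPRAT, a log2 difference of 4.36 ± 0.21 (edgeR adjusted p = 1.3e-05). Both iWAT libraries (46.0 and 61.9 CPM) and both lPRAT libraries (54.2 and 33.3 CPM) lay above iBAT as well.

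The most posterior HoxA members were seen in adipocytes of mPRAT and hardly in the other depots. Hoxa13, known for the digits and the hindgut, was at 1.02, 0.745, 1.43 and 1.31 CPM in mPRAT from 63 UMIs, had 2 UMIs in iBAT, and had 0 in both lPRAT and both iWAT libraries. Its call against iBAT was lost without mPRAT at 6 months or the mPRAT library in cold. Hoxa11, known for limb and kidney, was at 0.610, 0.248, 0.488 and 1.13 CPM in mPRAT and 0 in the 8 other libraries. It was at least 31.3-fold higher than in iBAT (edgeR adjusted p = 0.024), and the call was lost without mPRAT at 6 months, the mPRAT library in cold or the iBAT library in cold. Hoxb9, at 0.225 to 1.78 CPM in mPRAT, had 0 UMIs in iBAT and was at least 44.9-fold higher (edgeR adjusted p = 0.0082). Hoxc11 rested on 11 UMIs in mPRAT (at least 11.5-fold higher, edgeR adjusted p = 0.040), and the call was lost without any single mPRAT, iBAT or lPRAT library. The 3 counts over iBAT amount to a very low level here, so these folds describe genes that are rare in mPRAT too. Hoxa11, Hoxb9 and Hoxc11 passed the count filter without a UMI from iBAT, so their calls are no test of a positional pattern. Hoxa13, with 2 UMIs in iBAT, passed it through mPRAT, and the same holds for its call.

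Hoxb4 went the other way in adipocytes. It was at 22.6, 17.8, 12.6 and 11.8 CPM in iBAT and 9.76, 8.20, 3.11 and 7.04 CPM in mPRAT. The ranges did not overlap, and the log2 difference was -1.33 ± 0.32 (edgeR adjusted p = 0.028). The call was lost under 7 of 21 alternative settings, among them leaving out mPRAT at 1, 2 or 6 months or iBAT at 1 or 2 months. Other anterior and middle members, Hoxa2, Hoxa4, Hoxb2 and Hoxb3, overlapped between the depots and were not called. Hoxa6 and Hoxd4, at 2.02 and 1.76, had ranges that did not overlap and narrowly missed the threshold (edgeR adjusted p = 0.073 and 0.052).

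In iWAT adipocytes, several HoxC members were above both iBAT and mPRAT. Against iBAT, 15 of 30 members were higher and 0 lower, where 24.4% of all genes were called in either direction and 10.4% higher and 14% lower. They were Hoxa3, Hoxa7, Hoxa9, Hoxa10, Hoxb5, Hoxb6, Hoxb7, Hoxb8, Hoxc4, Hoxc5, Hoxc6, Hoxc8, Hoxc9, Hoxc10 and Hoxd3, and Hoxb7 was lost without the iWAT library at room temperature and Hoxd3 without that in cold. Hoxc8 was at 3.54, 4.05, 1.02 and 1.55 CPM in iBAT, 56.3, 30.6, 30.7 and 36.9 CPM in mPRAT, 94.6 and 79.0 CPM in lPRAT and 92.9 and 93.7 CPM in iWAT. By value the order was iBAT, mPRAT, then lPRAT and iWAT, and the last pair overlapped. The Hoxc8 difference between lPRAT and mPRAT was not called. Against mPRAT, 4 members were higher in iWAT and 1 lower (8.66% of all genes called, 2.99% higher and 5.67% lower). The higher ones were Hoxc5 at 1.82 ± 0.22, Hoxc8 at 1.71 ± 0.34, Hoxb6 at 1.67 ± 0.45 and Hoxc4 at 1.36 ± 0.28 (edgeR adjusted p = 0.001, 0.011, 0.045 and 0.014). The lower one was Hoxa13, with 0 UMIs in iWAT and at least 22.8-fold higher in mPRAT (edgeR adjusted p = 0.031). Hoxa13 passed the count filter through mPRAT, so the direction of this call was fixed in advance. The Hoxb6 call was lost under 10 of 21 alternatives, 8 of them with a single library left out, the Hoxa13 call under 5 of 20 and the Hoxc4 call under 3 of 21. Leaving out either iWAT library was among these for each of the 3. The Hoxc8 call was lost with no age and temperature term. In place of these 5 there were 3 without the mPRAT library in cold or the iWAT library at room temperature, 2 without the iWAT library in cold and 8 without the iBAT library in cold.

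Between lPRAT and mPRAT adipocytes 3 of 30 members were called, a share near the background of all genes. Hoxc4, Hoxc5 and Hoxc6 were higher in lPRAT by 1.12 ± 0.29, 1.16 ± 0.23 and 1.23 ± 0.29 (edgeR adjusted p = 0.045, 0.014 and 0.034), where 6.22% of all genes were called (2.17% higher and 4.05% lower). Hoxc6 was at 103 and 69.5 CPM in lPRAT and 26.7 to 45.9 CPM in mPRAT, with no overlap. None of the 3 was called with no age and temperature term, without lPRAT at 2 months or without mPRAT at 2 months, and 1 was called without the mPRAT library in cold, mPRAT at 1 month or iBAT at 1 month, and 5 without mPRAT at 6 months. Hoxa13, Hoxa11 and Hoxb9, all seen in mPRAT, had 0 UMIs in lPRAT adipocytes.

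**Figure D3:**
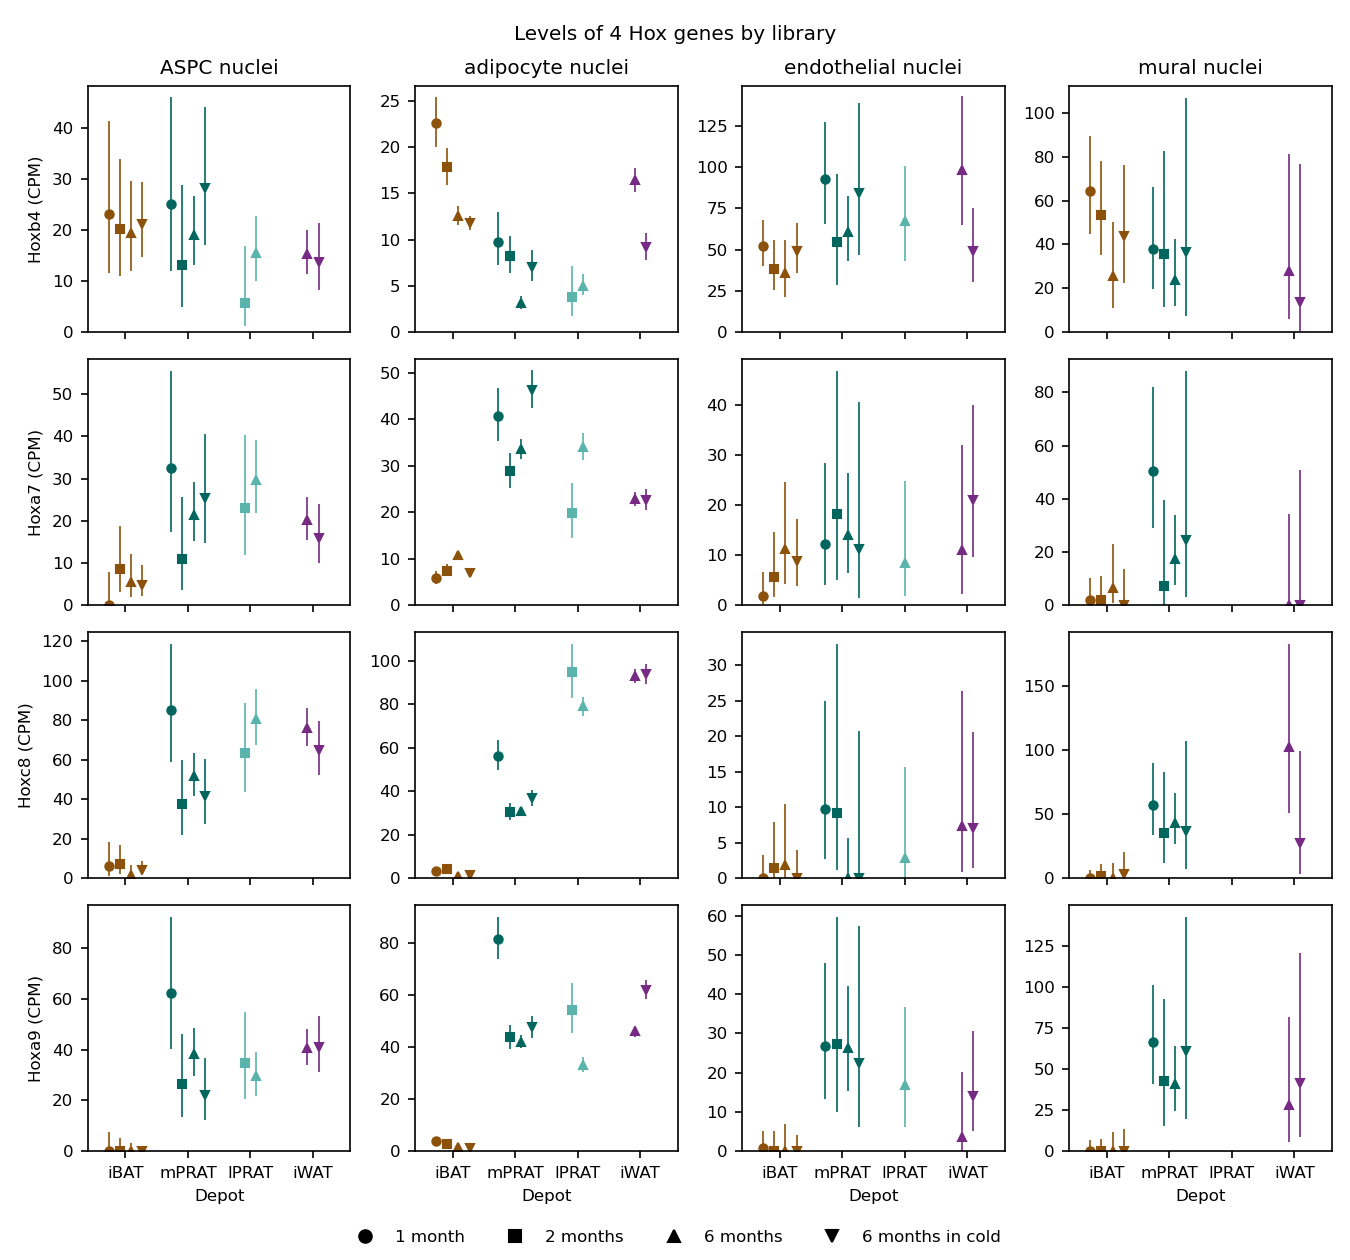
Levels of Hoxb4, Hoxa7, Hoxc8 and Hoxa9 (CPM, y axes with their own scales) by depot (x axis) in 4 classes of nuclei, 1 point for each library with its exact 95% Poisson interval; symbols mark age and temperature. Hoxa9 is at or near 0 in iBAT in each class, while Hoxb4 of ASPC overlaps between iBAT and mPRAT.

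In endothelial nuclei, of 24 members tested, 8 were higher in mPRAT than in iBAT and 0 lower, where 8.01% of all 13651 genes were called in either direction, 4.83% higher and 3.18% lower. They were Hoxa3, Hoxa9, Hoxa10, Hoxb3, Hoxb5, Hoxb6, Hoxb8 and Hoxb9. Hoxa9 had 1 UMI in iBAT and 26.8, 27.4, 26.3 and 22.4 CPM in mPRAT (ratio 85.1, 95% counting interval from 14.4 upwards, edgeR adjusted p = 1.7e-07). Hoxb9 was at 0 to 6.57 CPM in iBAT and 12.2 to 33.6 CPM in mPRAT (3.29 ± 0.73, edgeR adjusted p = 0.0007). Hoxb8 was at 1.42 to 8.76 and 21.7 to 44.8 CPM (2.12 ± 0.50, edgeR adjusted p = 0.0017). Hoxb6, the best counted of them, was at 47.9, 44.1, 54.5 and 91.9 CPM in iBAT and 171, 196, 175 and 185 CPM in mPRAT (1.53 ± 0.22, edgeR adjusted p = 8.5e-08). Hoxa10 had 1 UMI in iBAT and 12 in mPRAT, and its call was lost under 8 of 19 alternatives. Hoxa9 and Hoxa10, with 1 UMI each in iBAT, passed the count filter through other depots, so their direction was near fixed. The Hoxa3 and Hoxb5 calls were lost by DESeq2 and without mPRAT or iBAT at 1 month, and the Hoxb8 call by DESeq2 and without mPRAT at 2 months. Without the mPRAT library in cold the count stayed at 8, but Hoxa10 was lost. In iWAT, 5 members were above iBAT (6.84% of all genes called, 2.56% higher and 4.28% lower), namely Hoxa9, Hoxb3, Hoxb5, Hoxb6 and Hoxd3, and 1 was called without the iWAT library in cold. DESeq2 called 4 members for mPRAT and 1 for iWAT, and edgeR called 5 for mPRAT without mPRAT or iBAT at 1 month.

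In mural nuclei 14 of 23 tested members were higher in mPRAT than in iBAT and 0 lower, where 7.8% of all 11948 genes were called in either direction, 5.48% higher and 2.32% lower. They were Hoxa3, Hoxa5, Hoxa7, Hoxa9, Hoxa10, Hoxb5, Hoxb6, Hoxc5, Hoxc6, Hoxc8, Hoxc9, Hoxc10, Hoxd3 and Hoxd11. No member of paralog groups 9 to 13 had a UMI in mural nuclei of iBAT. The called Hoxa9, Hoxa10, Hoxc9, Hoxc10, Hoxd3 and Hoxd11 had 0 UMIs there, so they passed the count filter through other depots. Their calls are no test of a positional pattern. Hoxa9 was at 66.3, 42.5, 41.0 and 61.0 CPM in mPRAT, at least 27.7-fold higher (edgeR adjusted p = 4.3e-08). Hoxc8 had 2 UMIs in iBAT and 35.4 to 56.8 CPM in mPRAT (ratio 37.5, 95% counting interval from 9.81 upwards, edgeR adjusted p = 3.7e-06). Hoxc8 also passed the count filter through other depots, so its direction was near fixed. Hoxd11 was at 28.4, 7.08, 6.47 and 48.8 CPM in mPRAT, at least 9.24-fold higher than in iBAT. It also had 0 UMIs in iWAT, but 3 counts there equal 16.6 CPM, near the pooled mPRAT level of 16.9 CPM. A lower level in iWAT is thus not shown. The mural count rests on few nuclei, 37 to 246 a library in mPRAT. It was 12 without the mPRAT library in cold (Hoxb5 and Hoxd3 were lost), 6 without mPRAT at 6 months, 7 without mPRAT at 1 month, 9 without iBAT at 6 months and 4 by DESeq2, and the 4 called by DESeq2 were Hoxa9, Hoxa10, Hoxc5 and Hoxc8, while it gave no adjusted p for Hoxc10, Hoxd3 and Hoxd11. The calls lost most often were Hoxb5 (11 of 21 alternatives), Hoxa5 (9 of 21), Hoxc10 (7 of 18) and Hoxd3 (7 of 16). In iWAT, with 35 and 47 nuclei, Hoxa9, Hoxc5 and Hoxc8 were above iBAT (3.46% of all genes called, 2.16% higher and 1.3% lower). None was called without the iWAT library at room temperature, 5 were without mPRAT at 6 months and 4 without the mPRAT library in cold.

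Markers of other tissues differed between the depots in the same nuclei. In ASPC the 7 kidney tubule markers summed to 132, 72.6, 4.49 and 7.43 CPM in mPRAT at 1, 2 and 6 months and in cold, and to 1.44 to 3.69 CPM in iBAT. The 5 epithelial markers summed to 49.95, 83.6, 5.05 and 263 CPM in mPRAT ASPC and to 0 to 0.92 CPM in iBAT. The 6 mesothelial markers summed to 25.8 to 131 CPM in mPRAT ASPC and to 0 to 1.81 CPM in iBAT, so the ranges of all 3 lists were apart. The summed Hox level of the same mPRAT libraries was 1129, 622, 855 and 795 CPM. In adipocytes these lists reached 108, 136 and 58.2 CPM in mPRAT and 3.96, 0.49 and 3.21 CPM in iBAT. In endothelial nuclei they reached 343, 218 and 118 CPM in mPRAT and 5.47, 0 and 8.53 CPM in iBAT. In mural nuclei they reached 106, 171 and 73.2 CPM in mPRAT and 3.97, 1.84 and 7.28 CPM in iBAT. The kidney tubule ranges overlapped between the depots in adipocytes and endothelial nuclei, where mPRAT started at 0.38 and 0 CPM. The mesothelial ranges overlapped in mural nuclei, where mPRAT started at 6.47 CPM. The 5 adrenal cortex markers summed to 4.57 to 134 CPM in endothelial nuclei of mPRAT and to 0 to 9.39 CPM in iBAT. These ranges overlapped, as they did in the other classes. The 6 skeletal muscle markers were higher in iBAT in mural nuclei, at 224 to 351 CPM against 36.6 to 106 CPM in mPRAT. The part of RNA from such cells in the Hox differences was not tested.

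Whether a depot difference depended on the class was tested as an interaction, a test chosen after the results above were seen. Set against ASPC, the signed mPRAT minus iBAT difference was lower in adipocytes for 2 of 32 members, where 2.88% of all 21916 genes were called (2.17% higher and 0.712% lower). Hoxb4 differed by -1.36 ± 0.39 between the classes (edgeR adjusted p = 0.044). The Hoxa9 call (edgeR adjusted p = 0.034) set 0 UMIs in iBAT ASPC, with a limit of 0.767 CPM, against 1.42 to 4.04 CPM in iBAT adipocytes. The Hoxa9 call was lost under 8 of 16 alternatives, among them leaving out mPRAT at 1 or 6 months or any iBAT library. The Hoxb4 call was lost under 6 of 16, among them leaving out iBAT at 1 or 2 months or either mPRAT library at 6 months. For endothelial against ASPC nuclei 0 of 32 members were called by edgeR and 0 by DESeq2, with 3 at an unadjusted p under 0.05 (1.08% of all genes called, 0.634% higher and 0.443% lower), and 1 was called without the mPRAT library in cold. For mural against ASPC nuclei the counts were the same, 0, 0 and 3 (1.44% of all genes called, 0.976% higher and 0.461% lower).

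Outside iBAT, endothelial nuclei and ASPC of the same libraries differed in members of each cluster, with 3 of 11 tested HoxA members called. No test by cluster was made. Of 33 members tested, 10 were higher in endothelial nuclei and 10 lower, where 19.7% of all 21576 genes were called, 8.84% higher and 10.9% lower. All 10 higher members were from HoxB and HoxD (Hoxb3, Hoxb4, Hoxb5, Hoxb6, Hoxb8, Hoxb9, Hoxd3, Hoxd4, Hoxd8 and Hoxd9), and the 10 lower ones were 7 of 7 tested HoxC members with Hoxa3, Hoxa9 and Hoxa10. The Hoxa3 call was lost under 8 of 17 alternatives, and 19 members were called in all without the mPRAT library in cold. Hoxc4 was lower by a log2 difference of -4.99 ± 0.38 (edgeR adjusted p = 1.1e-11) and Hoxc5 by -4.12 ± 0.35 (edgeR adjusted p = 1.4e-10). Hoxc10 and Hoxc11 had 0 UMIs in every endothelial library, and Hoxc9 had under 10 counts there. Hoxc10 and Hoxc11 thus passed the count filter through other classes, so their direction was fixed in advance. Hoxd3 was higher by 3.49 ± 0.36 (edgeR adjusted p = 7.6e-09), Hoxd4 by 3.43 ± 0.45 (edgeR adjusted p = 4.7e-07) and Hoxb9 by 4.31 ± 0.78 (edgeR adjusted p = 8.7e-05). Hoxd4 lies within the annotated span of Hoxd3 on the same strand, so their differences may not be separate. Shares of the Hox UMIs of a library are given over all depots, iBAT included. HoxC made up 0.725% to 5.15% in endothelial nuclei and 24.2% to 51.3% in ASPC, and HoxB made up 45.3% to 63.8% and 12.9% to 46.6%. The upper end of HoxB in ASPC came from iBAT, and its range outside iBAT is given below. The HoxC share was as low in iBAT endothelial nuclei (1.00% to 3.65%) as in the other depots.

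**Figure D4:**
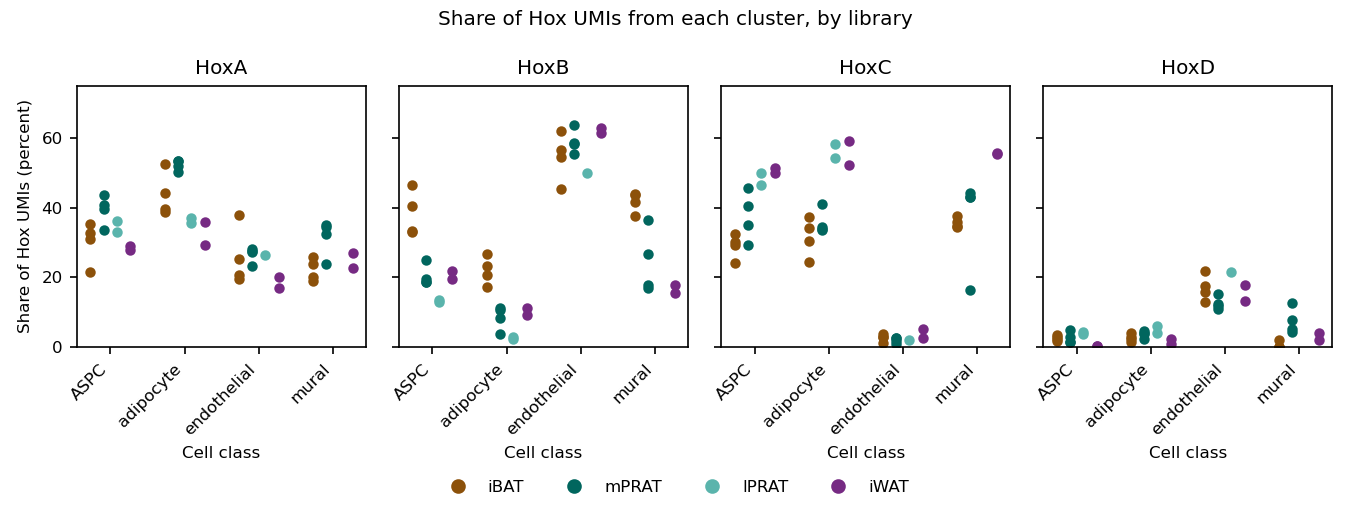
Share of a library's Hox UMIs that came from each cluster (percent, y axis) by class of nuclei (x axis), 1 point for each library, colored by depot. Endothelial nuclei sit at 0.725% to 5.15% for HoxC in all depots, below every ASPC, adipocyte and mural library.

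Outside iBAT, 2 of 33 members were higher in adipocytes (Hoxa7 by 0.64 ± 0.23 and Hoxa9 by 0.63 ± 0.19, edgeR adjusted p = 0.030 and 0.0068) and 11 were lower, near the 40.5% of all genes that were called (20.5% higher and 20% lower). The Hoxa7 call was lost under 5 of 17 alternatives, namely RLE scaling, no library block and leaving out mPRAT at 2 months, at 6 months or in cold. The lower members were Hoxa3, Hoxa10, Hoxb2, Hoxb3, Hoxb4, Hoxb5, Hoxb6, Hoxc4, Hoxc11, Hoxd10 and Hoxd11, where the Hoxa3 and Hoxa10 calls were lost under 10 of 17 and 10 of 16 alternatives. Hoxd10 and Hoxd11 had under 10 counts in adipocytes, and Hoxd10 also in ASPC, so they passed the count filter through other classes. The Hoxd11 direction was thus near fixed in advance, and the Hoxd10 call rests on few counts. Without the mPRAT library in cold 12 members were called in place of 13. Among them were Hoxb3 by -1.73 ± 0.26 (edgeR adjusted p = 2.9e-06), Hoxb2 by -1.98 ± 0.53 (edgeR adjusted p = 0.0034) and Hoxb4 by -0.97 ± 0.24 (edgeR adjusted p = 0.0017). HoxB made up 2.16% to 11.2% of the Hox UMIs of adipocytes outside iBAT and 12.9% to 25.0% in ASPC there. Mural nuclei and ASPC had 0 of 33 members called by edgeR, with 3 at an unadjusted p under 0.05 and 1 called by DESeq2 (10.3% of all genes called by edgeR, 4.2% higher and 6.07% lower). The count was 1 without the mPRAT library in cold or lPRAT at 2 months.

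**Figure D5:**
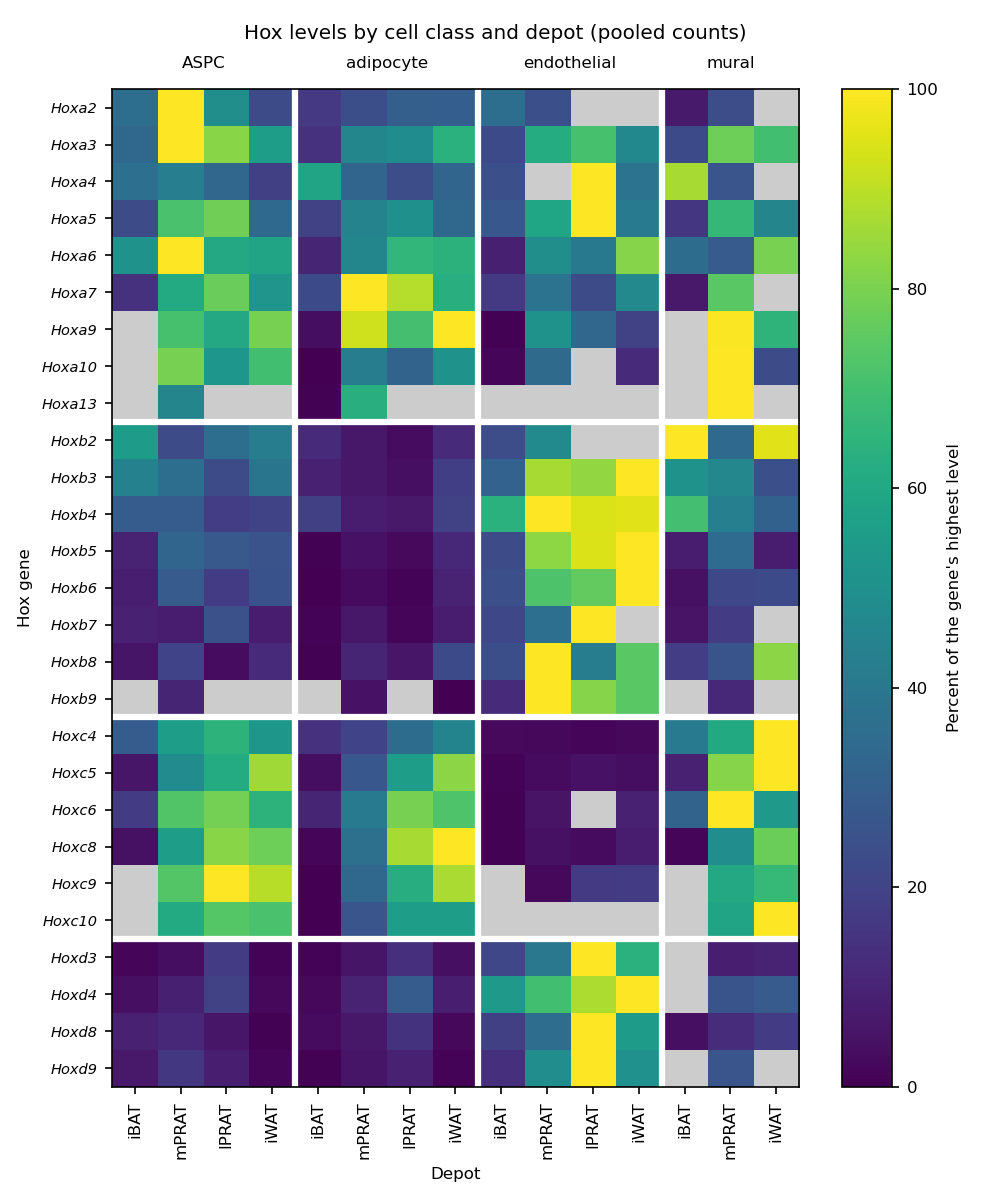
Pooled level of each Hox gene by class and depot, as a percent of that gene's own highest class and depot (color scale, 0 to 100), for 27 genes with at least 50 counts over the columns; grey is 0 counts, and 11 genes with fewer counts are left out. Rows run anterior to posterior within HoxA, HoxB, HoxC and HoxD; the grey iBAT cells of Hoxa9, Hoxa10, Hoxc9 and Hoxc10 in ASPC and the dark HoxC cells of endothelial nuclei are the features to see.

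RNA levels were also compared for a list of 23 genes that encode HOX partners or regulators of Hox expression. In ASPC, 4 of 20 tested were higher in mPRAT than in iBAT and 0 lower, where 4.93% and 3.34% of all genes were called. Meis1, a HOX partner of the TALE homeodomain family, was at 189, 179, 241 and 276 CPM in iBAT and 502, 598, 847 and 881 CPM in mPRAT, with no overlap (1.65 ± 0.16, edgeR adjusted p = 1.4e-07). Meis2 was at 353 to 503 CPM in iBAT and 894 CPM or more in mPRAT (1.23 ± 0.16, edgeR adjusted p = 5.8e-06), and Pbx4 and Pknox2 were the other 2. In endothelial nuclei 3 of 19 were higher, where 4.83% of all genes were, and Meis2 stood at 21.7, 35.6, 43.2 and 46.0 CPM in iBAT against 673 CPM or more in each mPRAT library (4.84 ± 0.23, edgeR adjusted p = 1.2e-31). It was at 11.3 CPM in lPRAT and 94.7 and 39.8 CPM in iWAT, so high Meis2 was seen in the mPRAT libraries of this class. Mural nuclei had 4 of 18 higher, where 5.48% of all genes were, among them Meis1, Meis2 and Pknox2. In adipocytes 1 of 21 was higher and 2 lower, where 8.84% of all genes were called. The lower ones were Pbx3 and Nr6a1, the latter a nuclear receptor that times trunk-to-tail Hox use in the embryo.

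Age and cold were tested as effects shared by the depots, from the age and temperature term of the same fits, a test chosen after the other results were seen. For cold against room temperature at 6 months, edgeR called 0 members in each class, where it called 1.33% of all genes in ASPC, 3.65% in adipocytes, 1.68% in endothelial and 1.16% in mural nuclei. For 6 against 2 months it called 0 members as well, with 0.325%, 0.171%, 1.79% and 0.737% of all genes in the same order. For 6 against 1 month it again called 0, with 0.761%, 1.86%, 2.42% and 1.4% of all genes. In each of these 12 comparisons 0 to 2 members had an unadjusted p under 0.05. DESeq2 called 1 member in each of 2 comparisons, both in adipocytes, and 0 in the other 10. One was Hoxa3, lower in cold (-0.76 ± 0.21, edgeR adjusted p = 0.077), which edgeR called with no count filter and without either lPRAT library. The other was Hoxa9, lower at 6 months than at 1 month (-0.99 ± 0.25, edgeR adjusted p = 0.064), which edgeR called with no count filter and under RLE scaling. An effect in 1 depot alone was not tested, and the values below are of single libraries. Hoxb4 in iBAT adipocytes was at 22.6 CPM (95% Poisson interval 19.99 to 25.4) at 1 month, 17.8 at 2 months, 12.6 at 6 months and 11.8 in cold. Hoxa4 in the same nuclei was at 3.38, 2.89 and 3.597 CPM and at 9.62 CPM in cold. Hoxa9 in mPRAT adipocytes was at 81.6 CPM at 1 month and 41.9 to 47.6 CPM in the other libraries. Within a depot, library effects cannot be told apart from age or cold.

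Members that were not tested are accounted for as follows. In ASPC, 4 members had 0 UMIs (Hoxc12, Hoxd1, Hoxd12 and Hoxd13) and 7 had under 10 counts. In adipocytes Hoxc12 and Hoxd12 had 0 and 7 had under 10. Endothelial nuclei had 11 members at 0, among them Hoxc10 and Hoxc11, and 4 under 10, and mural nuclei had 6 at 0 and 10 under 10. Hoxc12 and Hoxd12 were seen in none of the 4 classes. A member was tested only with 10 counts or more over the libraries, which a gene high in 1 depot can reach through that depot alone. In class comparisons the same holds for a gene high in 1 class.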

How the data were processed

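The members and gene lists were chosen with earlier results of these data known. The authors deposited, for each of 12 libraries (10x Genomics 3′ v3.1), whole-number UMI counts per gene and nucleus, made with Cell Ranger 7.0.0 per the file headers and with genome build mm10 per the submitters' processing notes. Whether intronic reads were counted, and the annotation used, are not given in the sources used here. Nuclei were kept from 500 UMIs and 300 genes upwards and up to 10% mitochondrial UMIs, 106898 of 119035. A nucleus entered a class when at least 2 of its markers had a UMI and marker UMIs reached 15 per 10000. These limits were set after seeing the marker distributions. Of kept nuclei 83.9% passed 1 of 14 marker gates, 6.84% passed several and were left out as possible doublets, and 9.28% passed none; no doublet caller was run. Near the gate (12 to 18 per 10000) lay 807 ASPC, 4006 adipocyte, 244 endothelial and 251 mural nuclei. Of 117275 distinct barcodes 1746 were in 2 or more libraries, with 76 at most shared by a pair (0.592% of the smaller library).

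Counts were summed per class and library (at least 20 nuclei) and tested with edgeR 4.0.16 (quasi-likelihood, TMM scaling, genes with at least 10 counts, R 4.3.3) with depot and an additive age and temperature term; calls are at an adjusted p under 0.05. Age and cold were tested from that term, which was chosen after seeing the data. Class comparisons kept the library as a block. SE is the log2 difference over the root of F. The fits for mPRAT against iBAT were tested on simulated data. They recovered 9% to 16% of 2-fold and 55% to 69% of 4-fold changes, depending on the class. A count of 0 called members thus does not show equal levels. Lower bounds take 3 counts over the depot at 0, and 95% intervals are exact Poisson and cover counting error only. In each comparison, called members are named and at most 8 with the largest change get full statistics; Hoxb4, Hoxa6, Hoxd4 and, in ASPC, Hoxd9 and Hoxd11 were added after their values were seen. The values of 1 member and 1 cofactor are not reported here. Alternatives were RLE scaling, DESeq2 1.42.0, other count filters, other gates, no mitochondrial limit, no age and temperature term and leaving out each library. Tables and figures used Python 3.11.15 with pandas 2.3.3, scipy 1.17.1 and matplotlib 3.10.9.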

Additional observations from a re-analysis of the deposited data

Results flagged for a closer look

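In 99 sets of 4 libraries, 5 had a library far from the other 3, where chance gives about 1 in 20; the libraries also differ in age and temperature. The lowest Hoxc6 level in iBAT ASPC was 6.30 CPM (1 month). In mPRAT adipocytes the highest Hoxa9 level was 81.6 CPM (1 month) and the highest Hoxc10 level 9.29 CPM (cold). The lowest Hoxb8 level in iBAT adipocytes was 0.0874 CPM (cold), and the highest summed Hox level in iBAT mural nuclei was 372 CPM (1 month).

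The mPRAT against iBAT difference was unequal between adipocytes and ASPC for Hoxa9 (edgeR interaction, adjusted p = 0.034) and Hoxb4 (0.044), and both calls were lost without some single libraries.

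Hox UMIs were also counted in nuclei outside the 4 classes, with counts pooled over the libraries of a depot that had enough nuclei. In mPRAT the summed level was 793 CPM in kidney tubule, 1004 CPM in epithelial, 1220 CPM in adrenal cortex and 374 CPM in Schwann nuclei (20 UMIs), and 70.3 CPM in B cell nuclei, from 1 library. T or NK nuclei of mPRAT had 69.4 CPM pooled, mostly from the library at 6 months (60.9 CPM, 1380 of 1516 nuclei), and 461, 357 and 198 CPM at 1 month, 2 months and in cold, from 10, 9 and 16 UMIs. In lPRAT it was 892 CPM in mesothelial nuclei and 132 CPM in B cell nuclei (8 UMIs). In iBAT it was 6.01 CPM in T or NK nuclei (1 UMI), 60.6 CPM in B cell nuclei (3 UMIs), 88.3 CPM in skeletal muscle and 115 CPM in Schwann nuclei (10 UMIs). In iWAT it was 74.6 CPM in T or NK and 162 CPM in B cell nuclei. Macrophages had 0 to 131 CPM over the libraries. The kidney tubule, epithelial, adrenal cortex and Schwann nuclei of mPRAT and the mesothelial nuclei of lPRAT lay above that range. Of B cell and T or NK nuclei, so did the B cell nuclei of iWAT. The T or NK nuclei of mPRAT at 1 month, 2 months and in cold also did, on few UMIs. The B cell value of lPRAT was just past the upper end of the range.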

How the results depend on the processing

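No direction reversed under any alternative, and 82 of 136 calls of single members were lost under none of the alternatives that gave them a test (some count filters and DESeq2 gave none for rare members). No paired analysis was possible on replicate numbers, because these only follow accession order. Libraries of 1 age and temperature are instead matched across depots by a term in each depot fit, and the fit without it is given below. DESeq2 gave 4 members in place of 8 for endothelial and 4 in place of 14 for mural mPRAT against iBAT, 1 in place of 5 for endothelial iWAT against iBAT, 5 in place of 3 for adipocyte lPRAT against mPRAT, 9 in place of 5 for adipocyte iWAT against mPRAT, 0 in place of 1 for ASPC iWAT against mPRAT, 1 in place of 0 for mural against ASPC and 1 in place of 2 for the adipocyte interaction. RLE scaling gave 8 for adipocyte iWAT against mPRAT, 5 for mural iWAT against iBAT and 1 for mural against ASPC. With no count filter there were 3 for ASPC and 10 for adipocyte iWAT against mPRAT and 1 for the endothelial interaction. The filterByExpr filter gave 7 for mural mPRAT against iBAT, 13 for endothelial against ASPC and 1 for mural against ASPC, with fewer genes tested. A stricter gate gave 2 for mural against ASPC and 1 for the adipocyte interaction. Keeping nuclei of several gates gave 10 for endothelial and 6 for mural iWAT against iBAT and 1 for each of the adipocyte and endothelial interactions. Without the top 5% of nuclei by UMIs, mural iWAT against iBAT gave 5. With no age and temperature term, ASPC iWAT against mPRAT gave 0, adipocyte lPRAT against mPRAT 0 and adipocyte iWAT against mPRAT 2. For age and cold, where 0 members were called, adipocytes gave 1 for cold by DESeq2 and with no count filter, and 1 for 6 against 1 month by these and under RLE scaling. Apart from construction, the cause of these moves was not tested.

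Leaving out 1 library at a time gave 12 to 13 (ASPC) and 15 to 23 (adipocyte) members for mPRAT against iBAT, 5 to 8 for endothelial (5 without mPRAT or iBAT at 1 month) and 6 to 14 for mural. For iWAT against iBAT it gave 9 to 12, 14 to 17, 1 to 7 and 0 to 5 in the same order of classes. For lPRAT against mPRAT it gave 0 in ASPC and 0 to 5 in adipocytes, and for iWAT against mPRAT 0 to 3 and 2 to 8. Against ASPC it gave 10 to 14 for adipocytes, 18 to 21 for endothelial and 0 to 1 for mural nuclei. The interactions gave 1 to 2, 0 to 1 and 0 for adipocyte, endothelial and mural nuclei. For age and cold it gave 0, except 0 to 1 for cold in adipocytes. Where 1 iWAT or lPRAT library was left, it was assumed to vary like the other groups. RLE moved the median of all genes by over 0.1 in adipocyte iWAT and lPRAT comparisons (for iWAT against iBAT from -0.04 to 0.11) and in adipocyte and mural against ASPC, and no Hox call changed direction with it. Depth limits the rarest members: below 10 counts no test was made.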

Other observations

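Nuclei gated by markers of other tissues differed in which Hox clusters they held. Epithelial-gated nuclei (225 nuclei) held 813 CPM from HoxB and 183 CPM from HoxD but 2.86 CPM from HoxA and 5.71 CPM from HoxC, the last pair from 3 and 6 UMIs. In the 3 libraries with enough of these nuclei Hoxb3 was at 214, 242 and 258 CPM and Hoxb6 at 263, 240 and 179 CPM. Adrenal cortex nuclei (201 nuclei) held 993 CPM from HoxB, with Hoxb9 at 183 and 111 CPM at 6 months and in cold, against 50.4 CPM from HoxA. Kidney tubule nuclei (873 nuclei) held HoxA, HoxB and HoxC at 238, 242 and 250.2 CPM. In the mesothelial nuclei of lPRAT (151 nuclei) Hoxa3 was at 242 CPM at 2 months and 249.6 CPM at 6 months.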
